A study of Rattus norvegicus with 8 samples.

Results

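The 9 genes described here belong to the TNF receptor superfamily: Tnfrsf1a, Tnfrsf1b, Tnfrsf12a, Tnfrsf11b, Tnfrsf21, Tnfrsf9, Tnfrsf4, Fas and Cd40. Their spots were found as the non-control spots whose gene name in the scanner files equals one of these symbols, which gave 12 of the 43379 non-control spots of the array and 9 of its 35199 gene names. Levels could be quantified in all 8 rats for 21332 genes, and all 9 receptor genes are among them, although a single spot each of Fas and Cd40 dropped out as too dim in at least 1 rat.

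Receptors of this family sit in the plasma membrane, bind ligands of the TNF family through cysteine-rich repeats and pass the signal on through adaptor proteins. Those with a death domain in their cytoplasmic tail can recruit Tradd or Fadd, which lead to NF-kappa-B activation or to caspases and RIP kinases, whereas those without one bind TRAF proteins. In brain tissue they are known for their part in microglial, endothelial and astrocytic responses to injury and in the survival or death of neurons, and several of them are themselves induced during inflammation.

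RNA from the hippocampal dentate gyrus (DG) of 8 adult female Sprague-Dawley rats was measured, and all 8 rats had been ovariectomized (OVX) and had undergone status epilepticus (SE) evoked by kainic acid. The 4 COS rats (castrated, oil-injected, SE) received oil, and the 4 CES rats (castrated, E2-replaced, SE) received estradiol (E2), so the comparison asks how E2 replacement changed the DG transcriptome of rats that went through SE. Rats without SE are not analysed here, so no value below is relative to a DG without seizures. The sample records give kainic acid at 16 mg/kg, SE ended with pentobarbital after 5 h, and 4 estradiol doses of 2 microg at 24 h intervals, of which 2 preceded SE and 2 followed it. The study's own methods instead give a lower kainic acid dose, diazepam to end SE, all estradiol benzoate injections ahead of SE, and both an early and a later time of tissue collection, so the interval between SE and sampling is uncertain. The dentate gyrus was dissected as bulk tissue, in which fewer cells of a type and less RNA per cell cannot be told apart.

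Each of the 4 arrays, all on 1 slide, carried 2 rats of the same group, 1 labelled with Cy3 and 1 with Cy5. Replicates 1 and 3 of both groups were in Cy3 and replicates 2 and 4 in Cy5. The dye is thus balanced between the groups, while the array lies within the group. Valid spots, those with a foreground at least 2 times the local background, numbered 32381 to 38553 in the COS rats and 30690 to 35352 in the CES rats, no spot was saturated, and the small number of arrays limits the precision of every value. Of the genes listed as markers of DG granule neurons, Prox1 was not well above background in any rat, while Snap25, Neurod2, Camk2a, Calb1 and Syt1 were well above background in all 8.

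Sequences are shown first for what lies upstream of the receptors whose levels moved together. The promoter table held 7 of the 9 genes, without Cd40 and Tnfrsf11b. The 250 bases before the annotated start are printed for the 4 receptors whose COS and CES levels did not overlap, Tnfrsf12a, Fas, Tnfrsf1b and Tnfrsf1a, and for Tnfrsf21, whose level was not called different, as a contrast. They are from RefSeq on GRCr8, 5′ to 3′ on the strand of the gene, with the letters of the motifs searched in capitals.
Tnfrsf12a promoter, chr10:13213649-13213898, minus strand: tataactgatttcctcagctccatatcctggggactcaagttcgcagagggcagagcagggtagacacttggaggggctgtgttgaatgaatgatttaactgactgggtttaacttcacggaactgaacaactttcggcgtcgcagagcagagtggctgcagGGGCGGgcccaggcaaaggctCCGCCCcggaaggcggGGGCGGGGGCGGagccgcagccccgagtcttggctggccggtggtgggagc
Fas promoter, chr1:241211905-241212154, plus strand: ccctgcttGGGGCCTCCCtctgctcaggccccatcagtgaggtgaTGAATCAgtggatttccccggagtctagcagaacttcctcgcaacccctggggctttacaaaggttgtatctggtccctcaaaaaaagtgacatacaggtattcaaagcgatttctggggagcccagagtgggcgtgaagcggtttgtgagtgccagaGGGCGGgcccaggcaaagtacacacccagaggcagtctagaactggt
Tnfrsf1b promoter, chr5:162387412-162387661, minus strand: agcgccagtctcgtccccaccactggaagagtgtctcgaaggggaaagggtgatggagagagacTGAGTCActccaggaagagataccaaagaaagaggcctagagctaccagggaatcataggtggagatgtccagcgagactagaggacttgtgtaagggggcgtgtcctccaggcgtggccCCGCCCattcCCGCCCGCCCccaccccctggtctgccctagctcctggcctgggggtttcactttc
Tnfrsf1a promoter, chr4:159836869-159837118, plus strand: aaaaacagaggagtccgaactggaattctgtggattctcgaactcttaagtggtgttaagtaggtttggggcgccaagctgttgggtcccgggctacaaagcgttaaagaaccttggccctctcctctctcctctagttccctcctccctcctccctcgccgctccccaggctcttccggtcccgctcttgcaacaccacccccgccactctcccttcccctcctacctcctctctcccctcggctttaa
Tnfrsf21 promoter, chr9:25451324-25451573, minus strand: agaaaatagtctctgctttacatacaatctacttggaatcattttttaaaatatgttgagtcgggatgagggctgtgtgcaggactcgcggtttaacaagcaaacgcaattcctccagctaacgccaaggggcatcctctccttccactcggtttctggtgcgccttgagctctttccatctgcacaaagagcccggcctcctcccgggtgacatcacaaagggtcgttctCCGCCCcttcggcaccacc

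The motifs were searched on both strands in 300-base windows, 250 bases before and 50 after each start, over 33469 promoters. The AP-1 motif TGANTCA was in the windows of Fas, from -205 to -199, and of Tnfrsf1b, from -186 to -180, that is in 2 of the 7 receptor promoters, and in 7.33% of all promoters. The NF-kappa-B motif was found in Fas alone of the 7, from -242 to -233, and in 7.51% of all promoters. The GC box GGGCGG was in 4 of the 7 (Fas, Tnfrsf1b, Tnfrsf12a and Tnfrsf21) and in 33.1% of all promoters. Tnfrsf12a held 4 GC boxes between -88 and -40, the most of the receptors, and Tnfrsf1b held 3 between -66 and -47, of which the pair nearest the start overlap each other. No window of the 7 held a TATA box (TATAAA, in 14.2% of all promoters) or a palindromic estrogen response element (in 0.027%). The windows of Tnfrsf12a, Tnfrsf21, Tnfrsf1a and Tnfrsf1b held 19, 17, 13 and 12 CG dinucleotides, above the median of 7 over all promoters, whereas Fas held 7 and Tnfrsf9 and Tnfrsf4 held 4 each. These matches describe letters, and GC boxes were in the contrast receptor and in Fas, Tnfrsf1b and Tnfrsf12a of the lower receptors, but not in Tnfrsf1a, Tnfrsf9 or Tnfrsf4.

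The probes that decide how the receptors were read are shown next, in lower case and in the orientation given in the array files. The probes of Tnfrsf12a, Tnfrsf21 and Tnfrsf9 are printed because each of them is split in the genome and so reads spliced RNA, with 60 bases spread over 152, 2319 and 8903 bases of rn4. The probes of Fas and Cd40 printed are those near the start of the transcript, at bases 164 and 173, which were too dim to be used.
Tnfrsf12a probe A_44_P210173: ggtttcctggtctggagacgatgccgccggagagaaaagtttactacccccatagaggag
Tnfrsf21 probe A_44_P185441: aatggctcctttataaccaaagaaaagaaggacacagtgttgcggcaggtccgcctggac
Tnfrsf9 probe A_44_P429298: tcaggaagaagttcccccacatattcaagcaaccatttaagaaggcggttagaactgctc
Fas probe A_44_P463745: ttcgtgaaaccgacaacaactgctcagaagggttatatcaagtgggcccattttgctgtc
Cd40 probe A_44_P442823: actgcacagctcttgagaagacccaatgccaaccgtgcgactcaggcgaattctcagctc

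On rn4 the used spots of Fas and Cd40 lie at chr1:238273471-238273530 and chr3:156107231-156107290, both on the plus strand, and the dim ones at chr1:238259523-238259582 and chr3:156099429-156099488. The Tnfrsf12a spots lie at chr10:12940920-12941071 and chr10:12940627-12940686, on the minus strand, and the Tnfrsf1a spot lies at chr4:162185192-162185251, on the plus strand. Those of Tnfrsf21 and Tnfrsf11b lie on the minus strand, at chr9:13590088-13592406 and chr7:90606882-90606941. Exon and UTR annotation of rn4 was not used here.

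In CES rats 7 of the 9 receptors had lower levels than in COS rats at an adjusted p under 0.05, and Tnfrsf12a, the receptor of the cytokine TWEAK, differed most, by 14.9-fold. Tnfrsf1a and Tnfrsf1b, the receptors of TNF itself, Fas, the receptor of Fas ligand, and Cd40, Tnfrsf9 and Tnfrsf4, which act in immune costimulation, were also lower. Tnfrsf21 and Tnfrsf11b were not called in either direction. The tests were limma fits over all 21332 genes with Benjamini-Hochberg adjustment, in which 28.3% of all genes were called lower and 5.8% higher. The count of receptors called higher was 0, also at an unadjusted p under 0.05. The methods' t-test, adjusted over all genes, called 0 receptors lower and 0 higher, and at an unadjusted p under 0.05 it had 7 lower. The 4 COS and 4 CES levels did not overlap for 4 receptors, all lower in CES, against 19.8% of all genes lower without overlap and 1.61% higher. The median difference of the 9 receptors was -1.55 on the log2 scale, beside a median of -0.25 over all genes. A part of a lower level may thus be shared with all genes under this scaling. The all-gene median depends on the scaling, as given below, and differences relative to it are given too. The limma p-values rest on the spread between these rats, with the variance of each gene moderated over all genes. As each array held rats of the same group, array and group effects cannot be fully separated. The correlation within arrays was -0.01 in the main fit. Over the other settings it ran from -0.50 without the dye term to 0.57 with normexp.

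**Figure D1:**
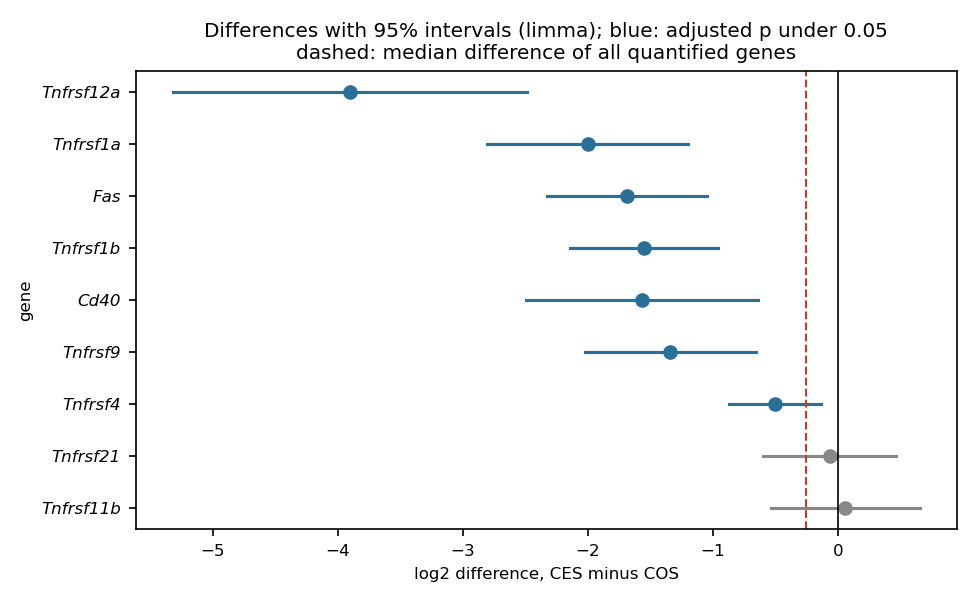
Log2 difference in level, CES minus COS, of each receptor gene (x axis), with 95% intervals from limma over 4 rats per group. Blue marks an adjusted p under 0.05 and the dashed line the median of all genes, -0.25. Tnfrsf12a, at -3.90, lies farthest from it, and the intervals of Tnfrsf21 and Tnfrsf11b span 0.

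Among the receptors with a death domain, Tnfrsf1a, which binds TNF and can signal through Tradd, had log2 levels (relative to the median valid spot of its channel) of 3.68, 3.32, 3.85 and 3.13 in COS replicates 1 to 4. In CES replicates 1 to 4 its log2 levels were 0.99, 2.61, 1.51 and 0.88. The groups did not overlap, although CES replicate 2 stood well above the other 3 CES rats. The mean log2 level was 3.50 ± 0.33 in COS and 1.5 ± 0.79 in CES (SD, n = 4 each), a difference of -2.0 (SE 0.36, limma adjusted p = 0.00518), or -1.75 once the median difference of all genes was taken off. Without COS replicate 3 the difference was -1.84 and the adjusted p 0.0572, in a range from 1.25e-05 to 0.0999 over the alternatives, with differences from -2.45 to -1.45.

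Fas, whose death domain recruits Fadd, had log2 levels of 0.55, -0.35, 0.68 and 0.13 in the COS rats. Its CES log2 levels were -1.59, -0.85, -1.16 and -2.14. Every CES rat lay below every COS rat. The means were 0.25 ± 0.47 and -1.44 ± 0.56 (SD, n = 4 each), with a log2 difference of -1.69 (SE 0.29, limma adjusted p = 0.00459), a 3.23-fold lower level. These values come from the spot at base 1279 of the transcript, which was well above background in 4 COS rats and 2 CES rats. The spot at base 164, printed above, was valid in 4 COS rats and 1 CES rat, was not well above background in any rat, and gives no level. Without COS replicate 3 the difference was -1.61 and the adjusted p 0.0507 (range over the alternatives, 4.67e-05 to 0.127). The size of the difference ran from -2.58 with the processed signal to -0.68 with loess, so the fold is not well fixed.

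Tnfrsf21, or death receptor 6, known for its part in axon pruning, had log2 levels of 1.24, 1.53, 1.21 and 0.81 in COS rats. In the CES rats its log2 levels were 1.43, 0.44, 1.62 and 1.05. The groups overlapped over most of their range, and CES replicate 2 was here the lowest rat. The log2 difference was -0.06 (SE 0.24, limma adjusted p = 0.857), with a 95% interval from -0.60 to 0.47. Its spot was well above background in all 8 rats, so dimness does not limit this value, and with the all-gene median taken off the difference was 0.19.

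Of the receptors that bind TRAF proteins, Tnfrsf12a, also called Fn14, had log2 levels of 5.48, 5.46, 5.90 and 5.14 in COS replicates 1 to 4. The CES log2 levels were 0.91, 4.00, 0.94 and 0.53. The COS rats were close together, CES replicates 1, 3 and 4 were all under 1, and CES replicate 2 lay between both clusters, nearer to COS. The mean log2 level was 5.49 ± 0.31 in COS and 1.59 ± 1.61 in CES (SD, n = 4 each). The log2 difference was -3.90 (SE 0.64, limma adjusted p = 0.00419), or -3.65 relative to all genes, and over the alternatives it ran from -4.77, without CES replicate 2, to -3.26, without CES replicate 4. The adjusted p ran from 3.64e-07 to 0.0998, and the call was lost without a filter on dim spots (0.0817) and by the methods' t-test (0.0998). Tnfrsf12a has 2 spots in the same direction: the split probe printed above differed by -3.83 (SE 0.58, adjusted p = 0.00366 over probes) and the other, at base 614 of the transcript, by -3.93 (SE 0.65, adjusted p = 0.00413 over probes, both limma). Foreground over background at these spots ran from 162 to 917 in COS rats and from 6.0 to 377 in CES rats, so both groups were measured well above background.

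Tnfrsf1b, the TNF receptor that prefers the membrane-bound ligand, had log2 levels of 0.34, -0.47, 0.04 and -0.65 in COS rats. Its log2 levels in CES rats were -1.83, -1.17, -1.66 and -2.28. The groups did not overlap, and COS replicate 4 and CES replicate 2 were the nearest rats of the 2 groups. The log2 difference was -1.55 (SE 0.26, limma adjusted p = 0.00462), -1.30 relative to all genes, a 2.93-fold lower level. Its spot was well above background in 4 COS rats but in 2 CES rats, so the CES levels are near the limit of what the arrays resolve. With normexp background correction, which leaves an offset in dim spots, the difference shrank to -0.76 with an adjusted p of 0.251, the highest over its alternatives, from 4.03e-05. The difference was -0.55 with loess and -2.43 with the processed signal.

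Cd40, through which T cells activate antigen-presenting cells and microglia, had log2 levels of 1.17, 0.91, 0.89 and 0.05 in COS rats. The CES log2 levels were -0.43, 0.24, -1.22 and -1.83. The groups overlapped in 1 pair, CES replicate 2 being above COS replicate 4. The log2 difference was -1.56 (SE 0.42, limma adjusted p = 0.0188), with CES levels that spread more (SD 0.90) than the COS levels (SD 0.49). The call rested on the spot at base 1045. The spot at base 173 printed above exceeded background well in 2 COS rats and in 1 CES rat, and without the filter its means differed by -0.99. The call was lost without COS replicates 1, 2 or 3 or CES replicate 1, where the adjusted p was 0.0563, 0.0529, 0.0933 and 0.0598 (range over the alternatives, 0.000281 to 0.185, with differences from -2.04 to -0.69).

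Tnfrsf9, or 4-1BB, a costimulatory receptor of lymphocytes and myeloid cells, had log2 levels of 0.16, -0.43, 0.12 and -1.36 in COS rats. Its CES log2 levels were -1.90, -1.24, -1.64 and -2.08. All CES rats were low and COS replicate 4 was among them, just below CES replicate 2. The log2 difference was -1.34 (SE 0.31, limma adjusted p = 0.0107), from a spot that exceeded background well in 4 COS rats and in 2 CES rats. Without COS replicate 3 the adjusted p was 0.0877 and without CES replicate 1 it was 0.0563 (range over the alternatives, 0.00077 to 0.459, with differences from -1.70 to -0.43).

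Tnfrsf4, or OX40, a costimulatory receptor of T cells, had log2 levels of 0.23, -0.10, 0.29 and -0.36 in COS rats. In CES rats they were -0.52, -0.57, -0.11 and -0.74. The groups overlapped, with CES replicate 3 above COS replicate 4 and just below COS replicate 2. The log2 difference of -0.50 (SE 0.17, limma adjusted p = 0.0414) was the smallest that was called, and it was -0.25 after the all-gene median was taken off. Leaving out any of COS replicates 1 to 4 or CES replicate 1 ended the call, with adjusted p-values of 0.115, 0.101, 0.160, 0.0632 and 0.143 (range over the alternatives, 0.0179 to 0.814, with differences from -0.70 to -0.07). On rn4, Tnfrsf4, Tnfrsf9 and Tnfrsf1b lie along the same stretch of chromosome 5, with their spots at chr5:172858625-172858684, chr5:168090349-168099251 and chr5:163666552-163666611. All 3 were called lower, by differences from -0.50 to -1.55, beside 28.3% of all genes called lower. Other genes of this stretch were not examined, and Tnfrsf9 and Tnfrsf4 lost their calls under another scaling given below.

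Tnfrsf11b, or osteoprotegerin, is the secreted member and acts as a decoy that binds the ligands RANKL and TRAIL. Its log2 levels were 1.11, -0.07, 0.84 and 0.33 in COS rats and 0.62, 1.05, 0.91 and -0.14 in CES rats. Both groups covered the same range, with the highest rat in COS and the lowest in CES. The log2 difference was 0.06 (SE 0.27, limma adjusted p = 0.885), with a 95% interval from -0.54 to 0.65 that leaves room for a change of that size in either direction. It was the only receptor of the 9 whose difference was above 0, and relative to all genes the difference was 0.31.

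**Figure D2:**
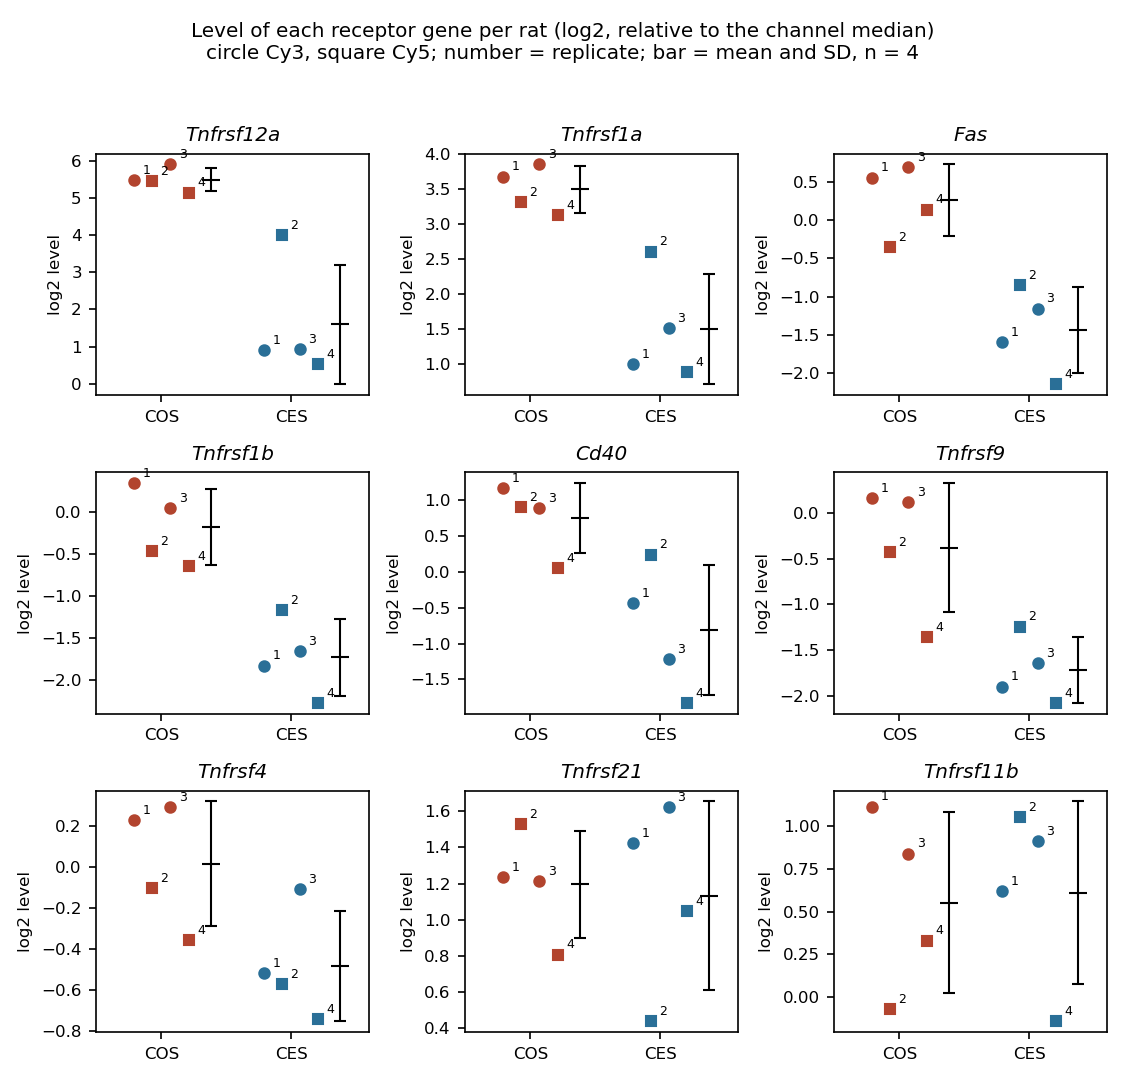
Log2 level of each receptor gene (y axis, relative to the median valid spot of the channel) in each of the 4 COS (red) and 4 CES (blue) rats, with the replicate number beside each point, circles for Cy3 and squares for Cy5, and the mean and SD as bars. CES replicate 2 lies above the other CES rats for Tnfrsf12a, at 4.00, and for Tnfrsf1a, at 2.61.

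CES replicate 2 was the highest CES rat for 6 of the 7 receptors called lower, with Tnfrsf4 as the exception, and for 45.8% of all genes called lower (2764 of 6038). Of the distance from the mean of the other 3 CES rats to the COS mean, this rat covered 73.2% for Cd40, 68.2% for Tnfrsf12a and 62.5% for Tnfrsf1a. It covered 43.4% for Tnfrsf1b, 42.1% for Tnfrsf9 and 41.3% for Fas, beside a median of 24.8% over all genes called lower. For Tnfrsf4 the value was -24.4%, as this rat lay below the mean of the other CES rats. These fractions come from 1 rat, carry no error and were not adjusted for dye. Tnfrsf1b, Tnfrsf9 and Fas were also well above background in only 2 CES rats each. Whether the fractions differ between receptors was not tested. It shared its array with CES replicate 1, below which it lay by -0.99 for Tnfrsf21 and above which it lay by 3.09 for Tnfrsf12a. Without CES replicate 2 the same number of receptors, 7, was called lower, beside 6982 of 21332 genes, and each of those 7 differences was larger in size. For the 6 in which this rat was the highest CES rat, leaving it out lowers the CES mean. Their larger size therefore adds no separate evidence.

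**Figure D3:**
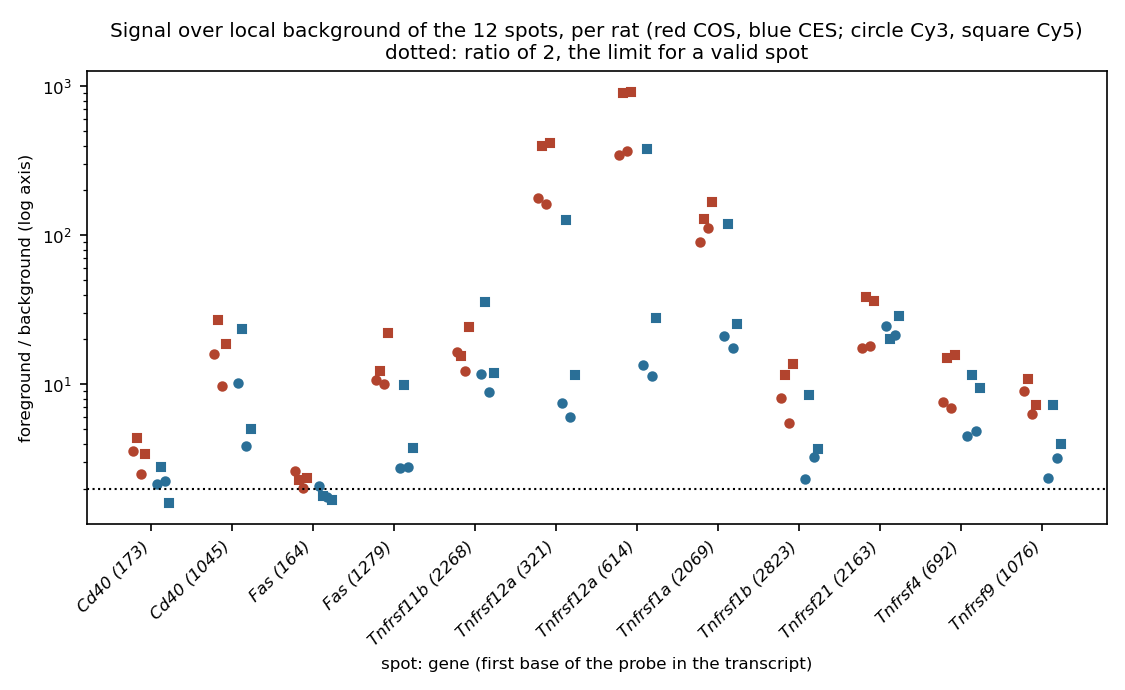
Foreground over local background (log axis) of the 12 receptor spots in each COS (red) and CES (blue) rat, each spot named by its gene and by the base of the transcript where its probe begins. The dotted line is the limit of 2 for a valid spot. The Fas spot at base 164 reaches 2.63 at most, and the Tnfrsf12a spots reach 917.

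The number of receptors called lower differed with the scaling of the channels. When each channel was divided by the median over the spots valid in all 8 rats, the median of all genes moved from -0.25 to 0.15, and the genes called went from 6038 lower and 1238 higher to 1718 lower (8.05%) and 3348 higher (15.7%). Tnfrsf12a at -3.50, Tnfrsf1a at -1.60, Fas at -1.29 and Tnfrsf1b at -1.15 were still called lower under it, with adjusted p-values of 0.0235, 0.0327, 0.0323 and 0.0289 by limma. Cd40 at -1.16, Tnfrsf9 at -0.94 and Tnfrsf4 at -0.10 were not (adjusted p = 0.0811, 0.0638 and 0.554). This scaling shifts all genes alike, so distances from the all-gene median stay as they were. The correlation within arrays also rose under it, from -0.01 to 0.28, and the SE of Tnfrsf1a from 0.36 to 0.42. How much of the lost calls came from the shift was not tested. Loess and quantile normalization gave 4 receptors lower as well, beside 10.4% of all genes under either, and so did the deposited log2 table, beside 9.17%. The count was 2 with normexp, beside 2.16% of all genes, and 2 without COS replicate 3, beside 4.28%. The sign of the difference was negative for Tnfrsf12a, Tnfrsf1a, Fas, Tnfrsf1b, Cd40, Tnfrsf9 and Tnfrsf4 under all alternatives that gave a value, whereas it turned with the setting for Tnfrsf21 and Tnfrsf11b, which were called under none.

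**Figure D4:**
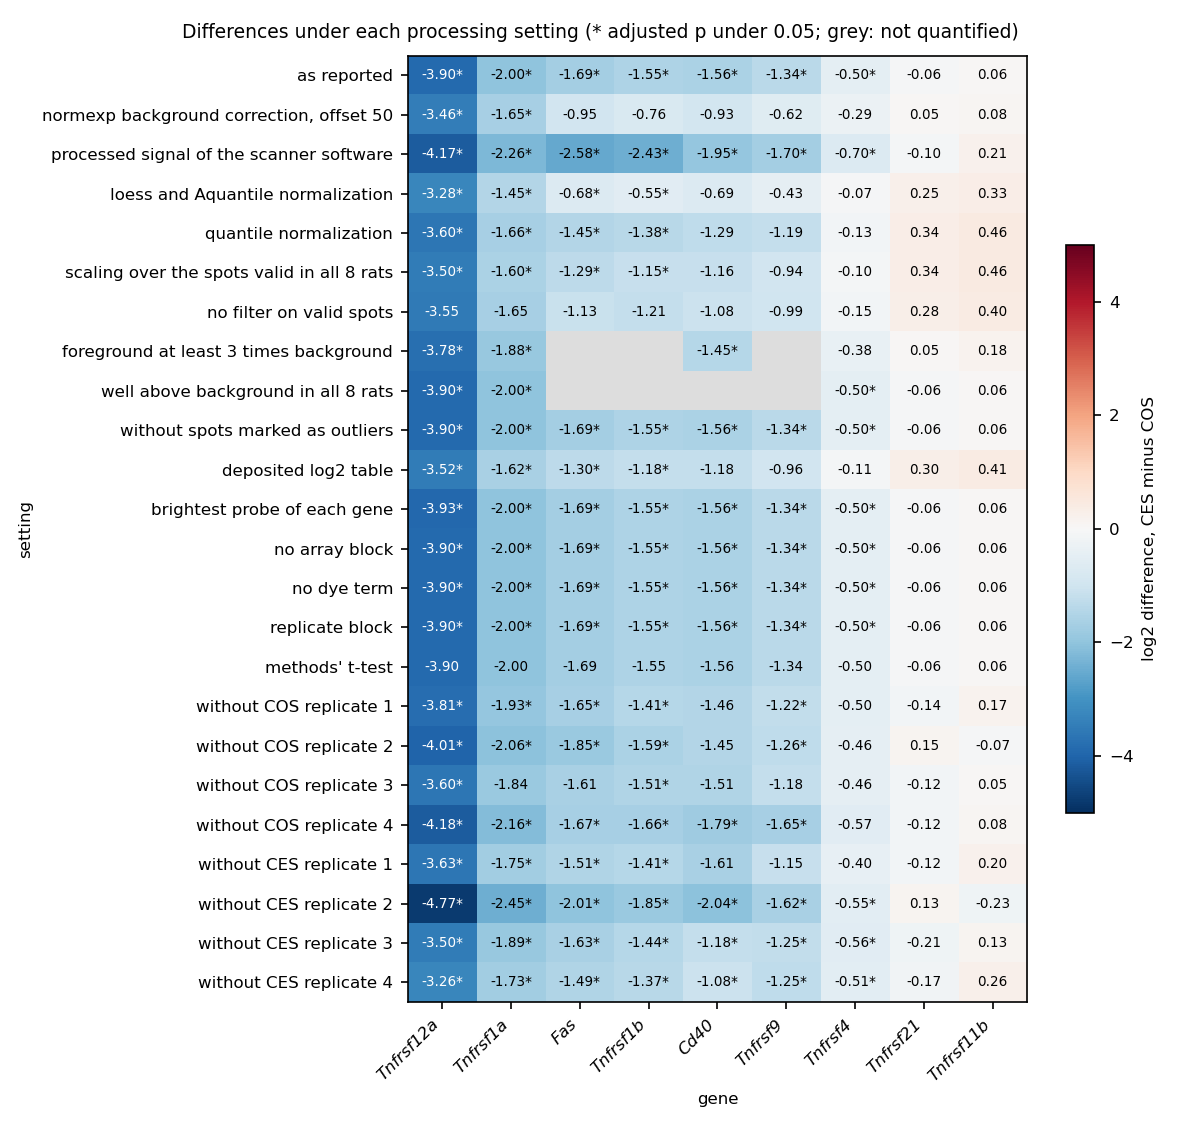
Log2 difference, CES minus COS, of each receptor gene (columns) under each way of processing the data (rows), with an asterisk where the adjusted p was under 0.05 and grey where the gene was not quantified. Tnfrsf12a ranges from -3.26 to -4.77 and is below 0 throughout, and Tnfrsf21 and Tnfrsf11b carry no asterisk.

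The remaining receptors of the family were listed together with Rell1 and Rell2, relatives of the receptor Relt. Of this list, 8 of the 16 genes on the array were quantified, and 7 were not well above background in any rat. Of the 8, 4 were lower and 0 higher (0 higher also at an unadjusted p under 0.05), with a median log2 difference of -0.75 beside -0.25 for all genes. Ngfr, the low-affinity neurotrophin receptor, differed by -2.08 (SE 0.44, limma adjusted p = 0.00816). Ltbr, the lymphotoxin receptor, differed by -1.68, Relt by -1.55 and its relative Rell1 by -1.27, and the COS and CES rats of all 4 did not overlap. Tnfrsf25, Tnfrsf19 and Rell2 had differences from -0.24 to -0.13 and Tnfrsf14 had 0.37, none of them called. Under the scaling over spots valid in all rats, 3 of the 8 were lower, without Ngfr. Of all genes, 28.3% were lower and 5.8% higher, 19.8% were lower without overlap, and 8.05% were lower under that scaling.

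Of the 16 ligands on the array 7 were quantified. Among these, 1 was lower and 0 were higher, beside 28.3% and 5.8% of all genes, with 3 lower and 0 higher at an unadjusted p under 0.05. The 1 called was Tnfsf9, the ligand of Tnfrsf9, at -1.16 (limma adjusted p = 0.0286), with COS and CES rats that overlapped, and it was not called under the scaling over spots valid in all rats. Faslg, the ligand of Fas, had a difference of -0.93 (adjusted p = 0.0549), and Tnfsf12, which encodes TWEAK, the ligand of Tnfrsf12a, one of -0.31 (adjusted p = 0.214). Tnf, Cd40lg and Tnfsf4, the ligands of Tnfrsf1a and Tnfrsf1b, of Cd40 and of Tnfrsf4, were not quantified, since their spots were not valid in all 8 rats. The list median of -0.31 was close to that of all genes. Whether ligands and receptors differ in this respect was not tested.

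Downstream of the receptors, 20 of 32 quantified adaptors and kinases were lower and 0 higher (22 and 0 at an unadjusted p under 0.05), with a median of -0.68. Ripk3, the kinase of necroptosis, differed by -3.24 (SE 0.62, limma adjusted p = 0.00604). Birc3, a ubiquitin ligase of the TRAF complex, differed by -2.12, the kinase Ripk2 by -1.86, and Fadd, which the death domain of Fas recruits, by -1.75. Ripk3, Birc3 and Fadd were well above background in 2 CES rats each. Tradd, the partner of Tnfrsf1a, was lower too, by -1.33, but Traf3 (0.06) and Sharpin (-0.12) were not called, so the calls were not uniform over the list. Under the scaling over spots valid in all rats 10 of the 32 were lower and Traip was higher. The shares over all genes were 28.3% lower and 5.8% higher, or 8.05% and 15.7% under that scaling.

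All 5 quantified NF-kappa-B subunits and partners were lower, with a median of -1.5, and all 5 were lower under the scaling over spots valid in all rats as well. Bcl3, a nuclear partner of the p50 and p52 subunits, differed by -4.54 (SE 0.75, limma adjusted p = 0.00438), Rel by -2.47, Nfkb2 by -1.5 and Nfkb1 by -1.28. Of the inhibitors and deubiquitinases of the pathway, 6 of 10 were lower and 0 higher (7 and 0 at an unadjusted p under 0.05), with a median of -0.89. Nfkbia, which holds NF-kappa-B in the cytoplasm, differed by -1.34, Tnip2 by -1.23, Tnip1 by -1.20 and Nfkbib by -1.09. Tax1bp1 (-0.40), Nfkbiz (0.25) and the deubiquitinases Cyld (0.20) and Otud7b (0.28) were not called. Some inhibitors were thus lower beside the subunits, but not the whole list. Under the scaling over spots valid in all rats, 4 of the 10 were lower. Over all genes, 28.3% were lower in the main fit and 8.05% under that scaling.

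Genes known to be induced by TNF signalling were lower in 15 of 23 and higher in 0 of them (18 and 1 at an unadjusted p under 0.05), with a median of -1.35. Among all genes 28.3% were lower and 5.8% higher, or 8.05% and 15.7% under the scaling over spots valid in all rats. The chemokine Ccl2 differed by -6.82 (SE 1.26, limma adjusted p = 0.00547), Cxcl1 by -4.35, Cxcl10 by -4.05 and the stress gene Gadd45b by -3.03. Ccl2 and Cxcl10 were well above background in 2 CES rats and Cxcl1 in 1, so their CES levels are poorly known. Vcam1, at 0.01, was not called. Under the scaling over spots valid in all rats 13 were lower and Cx3cl1 was higher. Other pathways induce these genes too, and the list does not single out TNF.

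**Figure D5:**
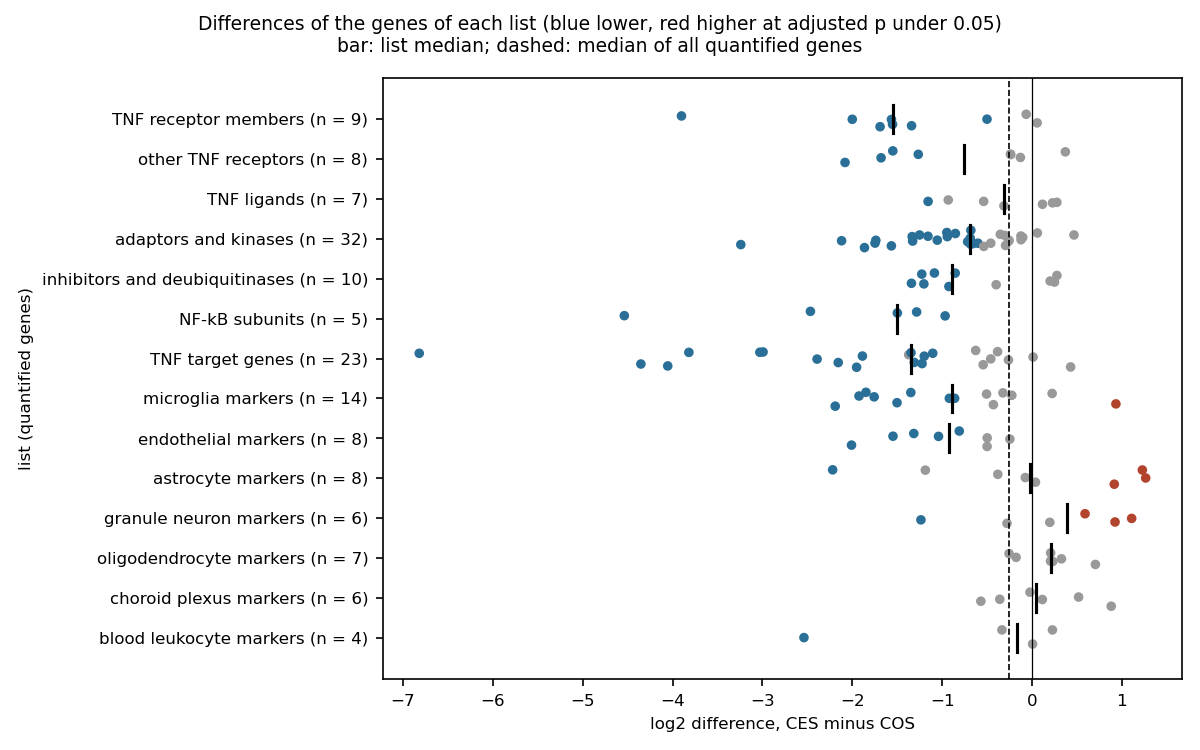
Log2 difference, CES minus COS (x axis), of each quantified gene of the 14 lists, coloured blue where lower and red where higher at an adjusted p under 0.05, with a bar at each list's median and a dashed line at the median of all genes. The receptors have a median of -1.55, the NF-kappa-B subunits of -1.5 and the oligodendrocyte markers of 0.21.

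Markers of cell types that express these receptors moved with the groups. Of 14 microglial markers, 8 were lower and 1 higher, and their summed level ran from 287 to 404 in COS rats and from 122 to 217 in CES rats, with CES replicate 2 the highest of the CES rats. Cd68 differed by -2.19, Itgam by -1.92, Tyrobp by -1.85 and C1qc by -1.76, whereas P2ry12, a marker of resting microglia, was higher by 0.93 (limma adjusted p = 0.00833) and Aif1 and Cx3cr1 were not called and Tmem119 was well above background in 1 rat. Of 8 quantified endothelial markers, 5 were lower and 0 higher (7 and 0 at an unadjusted p under 0.05), among them Vwf at -2.01, Esam at -1.55 and Flt1 at -1.04, whose groups did not overlap, and Kdr at -1.31 and Tek at -0.81, whose groups overlapped. Their summed level was 51.4 to 79.4 in COS and 21.9 to 52.3 in CES, CES replicate 2 again the highest of the CES rats, while Cldn5 was not called and Pecam1 was not well above background in any rat. Of 4 quantified blood and leukocyte markers, Lyz2, which microglia also express, had a difference of -2.54 (limma adjusted p = 0.00375) and was the 1 called. Cd3d (0.007), Cd3e (0.23) and Alas2 (-0.33) were not called. The summed level of the 4 was 65.9 to 119 in COS and 12.9 to 31.1 in CES. It mainly reflects Lyz2, whose mean log2 level in COS was 6.27, beside 1.94 for Alas2, the next highest. Ccr2 was not well above background in any rat. Under the scaling over spots valid in all rats 3 microglial and 1 endothelial marker were lower, P2ry12 was still higher, and Lyz2 was still lower. Beside these counts, 28.3% of all genes were lower and 5.8% higher, or 8.05% and 15.7% under that scaling. Without overlap, 19.8% of all genes were lower. The part of these cells in the receptor differences was not tested.

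Markers of the other cells of the tissue were called in both directions or not at all. Of 8 astrocyte markers, 1 was lower and 3 were higher (2 lower and 3 higher at an unadjusted p under 0.05). S100b was lower, at -2.22 (SE 0.76, limma adjusted p = 0.0479), and Aldh1l1 was higher, at 1.23. For S100b the groups overlapped, with CES replicate 1 at 2.63 and COS replicate 4 at 0.16. It was well above background in 4 COS rats and 3 CES rats. Gfap had a difference of -1.19 (limma adjusted p = 0.062), and the summed level was 235 to 269 in COS and 221 to 363 in CES. Of the 6 quantified genes in the granule neuron list, 3 were higher: Neurod2 at 1.11, Camk2a at 0.92 and Syt1 at 0.59. The groups overlapped for Neurod2 and Syt1. Dsp was lower, at -1.24, but was well above background in only 3 COS rats and 2 CES rats. Calb1 (-0.28) and Snap25 (0.20) were not called, and Prox1 was not quantified. The genes of this list thus did not move in a common direction. Their summed level was 225 to 311 in COS and 283 to 366 in CES. Under the scaling over spots valid in all rats 0 of either list were lower and 2 astrocyte and 3 granule neuron markers were higher. For all genes the shares were 28.3% lower and 5.8% higher, or 8.05% and 15.7% under that scaling. By limma, 0 of 7 oligodendrocyte and 0 of 6 choroid plexus markers were called, and 0 of either at an unadjusted p under 0.05. Their summed levels were 228 to 412 and 305 to 471 for oligodendrocytes and, in COS and CES, 13.4 to 630 and 16.9 to 201 for the choroid plexus, whose amount varied between rats within both groups.

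The genes whose log2 levels over the 8 rats were most like those of each receptor were found by the root mean square difference of the centred values, as a description. Cdc42ep5 (0.0870) and Gcnt2 (0.0955) were nearest to Tnfrsf1a, and Tpm2 (0.0985), Dram (0.107) and Btk (0.120) to Tnfrsf1b. Emp1 (0.202) was among the nearest to Tnfrsf12a, Stat5a (0.129) to Fas, Ppm1j (0.170) and Fli1 (0.182) to Cd40, and Sh3tc1 (0.181) to Tnfrsf9. Bmp4 (0.0922) was nearest to Tnfrsf21, Bcdin3d (0.0454) and Fxr1 (0.0527) were near Tnfrsf4, and Entpd3 (0.206) was near Tnfrsf11b. None of the named genes is itself a TNF receptor. Echdc3 (0.196) was also near Tnfrsf9, and the remaining nearest features are transcripts without a gene symbol in the array files or with a provisional one.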

How the data were processed

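The authors deposited scanner files with spot and background intensity for both channels, extracted with Agilent Feature Extraction 10.7.3.1 per the submitters' notes, with probe positions on rn4. The authors also deposited a log2 table, which equals the log2 of median signal minus background relative to a constant per channel, and it served as an alternative. Following the methods, valid spots (foreground at least 2 times background) were background-subtracted, divided by the median valid spot of the same label and array, averaged per gene over the spots valid in every rat, then log2-transformed. The authors' iterative renormalization was not applied. Groups were compared with limma 3.58.1 (R 4.3.3, statmod 1.5.0), with dye as a fixed term, array as a random block (correlation -0.01) and Benjamini-Hochberg adjustment. The fit was tested on simulated data that held no array effect and no scaling shift, so that test does not bear on either. All members are named, and of each list up to 4 called genes per direction with the largest differences among those without overlap, besides genes named for their role after their values were seen. Members, lists and tests were chosen with earlier results of these data known. Receptor accessions matched RefSeq for all 12 spots. Same-numbered rats deviated together (correlations 0.21 to 0.34), and as same-numbered rats share a dye, the correlations were -0.28 to 0.08 once dye was removed. Alternatives covered background, normalization, filters, probes, blocks, the test and each rat left out. Python 3.11.15 with pandas 2.3.3 and matplotlib 3.10.9 handled sequences and figures.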

Additional observations from a re-analysis of the deposited data

Results flagged for a closer look

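The Tnfrsf12a level of CES replicate 2 stood apart from the other CES rats. The gap between its log2 level of 4.00 and the nearest other CES rat, at 0.94, was 0.883 of the whole range of the group, above the critical value of Dixon's test at the 95% level for 4 samples. Of the 18 groups tested (9 receptors in COS and CES) it was the only 1 above that value, and chance flags about 1 in 20 such groups.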

How the results depend on the processing

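The 7 receptors, 6038 lower genes and 1238 higher genes became 2, 461 and 125 with normexp, 4, 2225 and 3323 with loess, 4, 2227 and 3059 with quantile normalization, 4, 1718 and 3348 with the scaling over spots valid in all rats, and 4, 1927 and 3275 in the deposited log2 table. A stricter filter of 3 times background gave 3 lower of the 6 receptors tested, beside 2828 lower of 16757 genes, and Tnfrsf4, still tested, lost its call. Spots well above background in all rats gave 3 lower of 5 receptors tested, beside 5370 lower and 1261 higher of 13680 genes. Without a filter limma gave 0, 0 and 0 (6, 3592 and 5630 at an unadjusted p under 0.05), and so did the methods' t-test after adjustment (7, 5331 and 772 unadjusted). No setting called a receptor higher, and no difference of a called receptor changed sign. The cause of these shifts was not tested. Leaving out single rats gave 2 to 7 receptors lower, 914 to 7012 genes lower and 257 to 1855 genes higher. The lowest of each came without COS replicate 3 (2, 914 and 257), and 4 receptors were lower without CES replicate 1. With genes lower first, the counts were 3634 and 511 without COS replicate 1, 3979 and 1079 without COS replicate 2, 5016 and 532 without COS replicate 4, and 2463 and 525 without CES replicate 1. Without COS replicate 3 the lower genes were also fewer in every list that had over 1: 1 of the other receptors, 6 adaptors, 3 inhibitors, 2 NF-kappa-B subunits, 7 TNF targets and 0 microglial and endothelial markers.

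With the replicate block 7 receptors, 6624 genes lower and 1241 higher were called, and no receptor call changed. Depth limits Fas, Tnfrsf1b and Tnfrsf9 most, whose spots were well above background in 2 CES rats each.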
